A study of Mus musculus with 3 samples.

Results

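The annexins are represented here by 17 spots for 10 genes, out of 16273 spots and 7984 named genes on the array. They were chosen by name alone, as every spot whose single gene symbol in the platform annotation is Anxa followed by a number: Anxa1, Anxa2, Anxa3, Anxa4, Anxa5, Anxa6, Anxa8, Anxa9, Anxa10 and Anxa13. No spot carried the name Anxa7 or Anxa11 in that annotation, and these genes were not analysed here. The data come from 3 cDNA arrays (arrays 1, 2 and 3), on each of which mouse spleen RNA labelled with Cy3 was hybridised together with mouse liver RNA labelled with Cy5. Both RNAs were commercial total RNA preparations taken through a double round of amplification to cRNA. The labels give no strain, age, sex or treatment and do not say whether the arrays came from separate animals or amplifications, so the spread that a p-value measures here is that between arrays and may be technical. Spleen was in Cy3 on every array, so differences between dyes and between tissues cannot be told apart.

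Each value is the deposited log2 ratio of the 2 channels for a spot, and positive ratios are written as higher in liver. That direction is likely rather than stated. It was read on one side from fibrinogen beta (Fgb, between 2.52 and 4.99) and Ttr (4.19, array 1 only). On the other side stood the B-cell genes Ms4a1 (between -4.22 and -3.49) and Ighm (between -3.57 and -1.57). Coro1a (-2.30 and -2.56 on arrays 1 and 2) lay on that side too. An exact 0 was read as a missing ratio. Arrays 1, 2 and 3 had ratios for 15, 13 and 17 annexin spots, and the exact zeros made up 11.8%, 23.5% and 0% of annexin spots against 19.7%, 31.7% and 6.53% of all spots. Markers of the labelled tissues were present. All 7 hepatocyte markers tested were called higher in liver and all 5 B-cell markers higher in spleen, against 27.1% and 27.8% of all genes. Fgb, Ms4a1 and Ighm are among these markers and set the direction, so the sides on which they fell were fixed in advance. No endothelial marker of the list had a named spot.

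Annexins are cytosolic proteins that bind negatively charged phospholipids when calcium rises, through a conserved core of repeats, and differ mainly in the short segment before that core. They take part in membrane repair, endocytosis, exocytosis and the organisation of the membrane skeleton, and several bind S100 proteins as partners. Leukocytes are known for Anxa1 and Anxa3, whereas Anxa9, Anxa10 and Anxa13 are better known from epithelia.

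Between liver and spleen the annexins went both ways and mostly by small amounts. Anxa13 was 2.98-fold higher in liver and Anxa9 1.47-fold higher in liver, whereas Anxa6 was 2.01-fold higher in spleen. Of the 9 annexin genes with a value on all 3 arrays, 2 were called higher in liver, 1 higher in spleen and 6 were not called (limma, Benjamini-Hochberg adjusted p under 0.05 over 5731 genes). In the same fit 54.9% of all genes were called, 27.1% higher in liver and 27.8% higher in spleen, against 33.3% of these annexins. The median absolute log2 ratio was 0.49 over the 9 annexins and 0.51 over all genes, and the median log2 ratio was 0.11 and -0.03. The annexin means ran from -1.01 to 1.57. Without array 1, 1 of 9 annexins was called higher in liver (Anxa13), against 938 of 5870 genes. In spleen 3 of 10 were called without array 2 (Anxa2, Anxa3 and Anxa6), against 1813 of 6739 genes. Among the fits that left out an array, Anxa3 entered the test only without array 2. Without array 3, 2 of 9 annexins were called in spleen (Anxa1 and Anxa6), against 1322 of 5772 genes.

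**Figure D1:**
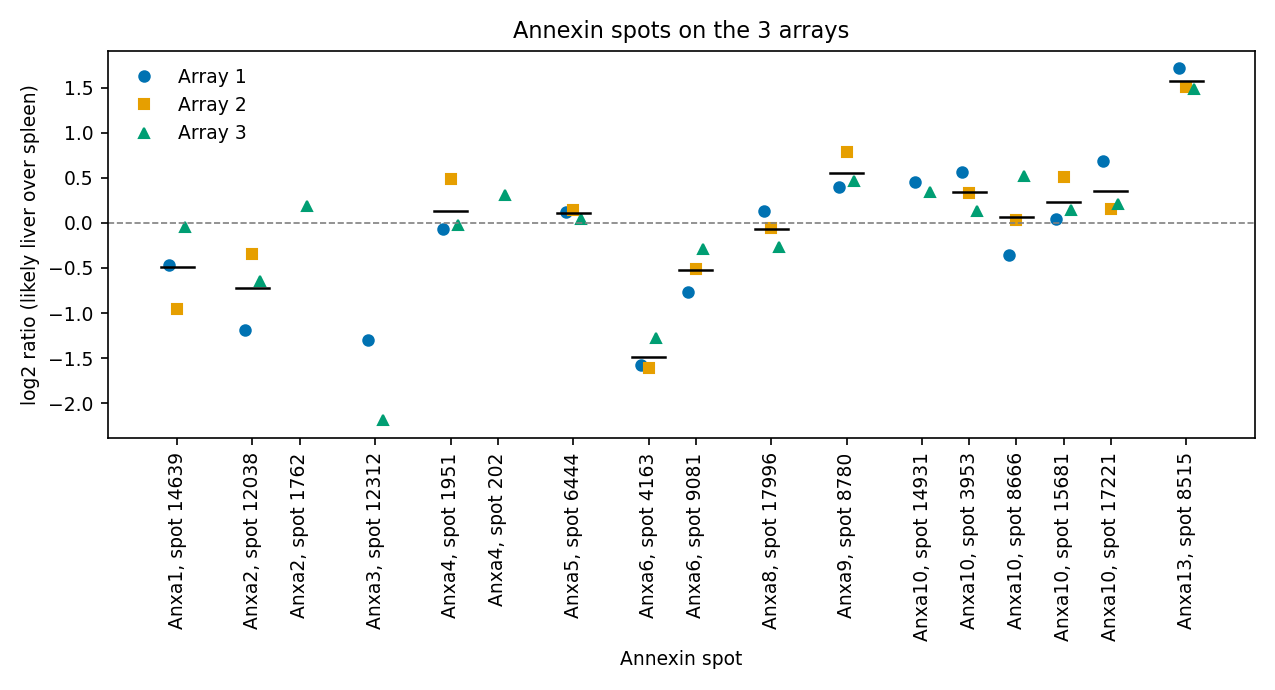
Deposited log2 ratio (vertical axis, likely liver over spleen) of each annexin spot (horizontal axis) on array 1 (circles), array 2 (squares) and array 3 (triangles); horizontal bars are means of spots with 3 values, and missing points are exact zeros. The Anxa13 spot lies at 1.49 or higher on all arrays, the Anxa6 spots lie below 0 on all arrays and apart from each other, and of the Anxa10 values only that of spot 8666 on array 1 (-0.36) is negative.

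Anxa13, regarded as the founder of the vertebrate family and known from the epithelium of intestine and kidney, had the largest ratio of the 9 tested annexins. Its single spot (8515) gave log2 ratios of 1.72, 1.51 and 1.49 on arrays 1, 2 and 3. All 3 values were higher than every other annexin value in the data. The mean was 1.57 ± 0.13 (SD, n = 3 arrays; 95% interval 1.27 to 1.87; limma adjusted p = 0.000304), and 93% of the tested genes had a lower mean. The call held in each of the 12 alternatives, with adjusted p from 8.43e-06 to 0.0268. No other spot of Anxa13 was there to check it.

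Anxa9 is an atypical annexin whose calcium-binding sites are degenerate. Its single spot (8780) gave 0.40, 0.79 and 0.47 on arrays 1, 2 and 3, positive on each and highest on array 2. The mean was 0.55 ± 0.21 (SD, n = 3 arrays; 95% interval 0.22 to 0.88; limma adjusted p = 0.0171). The call was lost without array 1 (adjusted p = 0.0780) and with the variance of each gene taken alone (0.100), within a range of 0.0140 to 0.100 over its alternatives. Its values did not overlap those of Anxa13, which was higher by 1.02 ± 0.30 (SD, n = 3 arrays).

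Anxa10 also departs from the family in having lost most of its calcium-binding sites, and is known from the stomach. It had the most spots, 5, and none of them was called. Averaged over its spots the log2 ratio was 0.28, 0.26 and 0.27 on arrays 1, 2 and 3, with a mean of 0.27 ± 0.010 (SD, n = 3 arrays; 95% interval -0.0077 to 0.55; limma adjusted p = 0.0882). This tight mean hid a wide spread among the spots themselves. Spot 8666 ran from -0.36 on array 1 through 0.04 on array 2 to 0.53 on array 3. Spot 17221 was instead highest on array 1, at 0.69, against 0.16 and 0.21 on arrays 2 and 3. Spots 3953 and 15681 averaged 0.35 ± 0.22 and 0.24 ± 0.25 (SD, n = 3 arrays), and spot 14931 gave 0.45 and 0.35 on arrays 1 and 3 and an exact 0 on array 2. Of the 14 Anxa10 values, only that of spot 8666 on array 1 was negative. The SD of 0.010 is therefore smaller than that of any of the 4 spots with 3 values, which had SDs of 0.22 to 0.44. With the variance of each gene taken alone Anxa10 was called (limma adjusted p = 0.0185), and it was not called in the other 11 alternatives, which reached 0.301.

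Anxa6, which carries a duplicated core and is linked to cholesterol transport and endocytosis, was the only tested annexin called higher in spleen. Spot 4163 gave -1.58, -1.61 and -1.28 on arrays 1, 2 and 3. Spot 9081 gave -0.77, -0.51 and -0.29 on the same arrays. Both spots were below 0 on every array, and their values did not overlap. Each was called on its own, with means of -1.49 ± 0.18 (SD, n = 3 arrays; adjusted p over 10614 spots 0.000277, limma) and -0.52 ± 0.24 (adjusted p = 0.0211, limma). Spot 4163 was lower than spot 9081 by 0.81, 1.10 and 0.98 on the 3 arrays, a mean difference of -0.97 ± 0.14 (SD, n = 3 arrays) that is larger than the spread between arrays. In a limma fit on the differences between the spots of all 948 genes that had 2 spots with 3 values, this difference passed (95% interval -1.36 to -0.57; limma adjusted p = 0.0100), as did 23.4% of such pairs. It did not pass with its own variance (0.118), within a range of 0.00339 to 0.118 over its alternatives.

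The gene mean of Anxa6 was -1.18, -1.06 and -0.78 on arrays 1, 2 and 3, or -1.01 ± 0.20 (SD, n = 3 arrays; 95% interval -1.34 to -0.68; limma adjusted p = 0.00184). Of the tested genes, 11.8% had a lower mean. The size depended on the spot: it was -1.49 (2.81-fold) from spot 4163 and -0.52 (1.44-fold) from spot 9081. The call of the gene was lost with its own variance (limma adjusted p = 0.0505), within a range of 0.000308 to 0.0505 over its alternatives. Spot 9081 lost its call without array 1 (limma adjusted p = 0.167) and with its own variance (0.120), while spot 4163 kept its call in both.

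Anxa3, known for promoting the aggregation of neutrophil granules, had the most negative single value of the family. Its only spot (12312) gave -1.30 on array 1 and -2.19 on array 3, with an exact 0 on array 2, so it did not enter the test on 3 arrays. The mean of the 2 values was -1.74 ± 0.63 (SD, n = 2 arrays), or 3.35-fold higher in spleen. In the fit on genes with values on at least 2 arrays, which called 47.8% of 6919 genes (23% higher in liver and 24.8% higher in spleen), Anxa3 was called higher in spleen (limma adjusted p = 0.00612; 95% interval -2.44 to -1.05). With the exact 0 kept as a ratio of 0, its mean was -1.16 and it was not called (limma adjusted p = 0.0972). Because the call rests on 2 arrays, its spread is largely borrowed from other genes.

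Anxa1 and Anxa2 had negative means that did not pass the adjusted threshold. Anxa1, a ligand of formyl peptide receptors that glucocorticoids induce, gave -0.46, -0.96 and -0.05 on arrays 1, 2 and 3 from spot 14639. Its sign was shared by all arrays, but the value on array 3 was close to 0. The mean was -0.49 ± 0.46 (SD, n = 3 arrays; 95% interval -0.97 to -0.0032; limma adjusted p = 0.0804). It was called without array 3 (mean -0.71, limma adjusted p = 0.0391), within a range of 0.0391 to 0.288 over its alternatives.

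Anxa2, which forms a complex with S100a10 at the plasma membrane and binds plasminogen there, was measured by spots that differed in sign. Spot 12038 gave -1.18, -0.34 and -0.65 on arrays 1, 2 and 3, a mean of -0.72 ± 0.43 (SD, n = 3 arrays), and was called higher in spleen among spots (limma adjusted p = 0.0170). Spot 1762 had a ratio on array 3 only, of 0.19, higher than spot 12038 on that array by 0.84. The gene mean over both was -0.58 ± 0.52 (SD, n = 3 arrays; 95% interval -1.12 to -0.05) and was not called (limma adjusted p = 0.0635). Using only spots with 3 values, the gene was called (limma adjusted p = 0.0190). It was also called without array 2 (limma adjusted p = 0.0174), and without array 1 its mean was -0.28 (0.280, the highest over its alternatives). The spot lost its call without array 1 (limma adjusted p = 0.111), without array 3 (0.0580) and with its own variance (0.164).

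Anxa4, Anxa5 and Anxa8 had means close to 0. Anxa5, whose protein is used to stain phosphatidylserine on dying cells, gave 0.12, 0.15 and 0.05 on arrays 1, 2 and 3 from spot 6444, a mean of 0.11 ± 0.05 (SD, n = 3 arrays). Its 95% interval of -0.18 to 0.39 leaves room for up to 1.31-fold in favour of liver (limma adjusted p = 0.458). Anxa4, known from secretory epithelia, gave -0.07, 0.49 and 0.14 over its spots, a mean of 0.19 ± 0.29 (SD, n = 3 arrays; 95% interval -0.19 to 0.56; limma adjusted p = 0.326). On arrays 1 and 2 these are values of spot 1951 alone, since spot 202 had a ratio on array 3 only, of 0.31. Anxa8, known from stratified epithelia, gave 0.14, -0.06 and -0.27 from spot 17996, values on both sides of 0, with a mean of -0.06 ± 0.20 (SD, n = 3 arrays; 95% interval -0.39 to 0.27; limma adjusted p = 0.707).

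**Figure D2:**
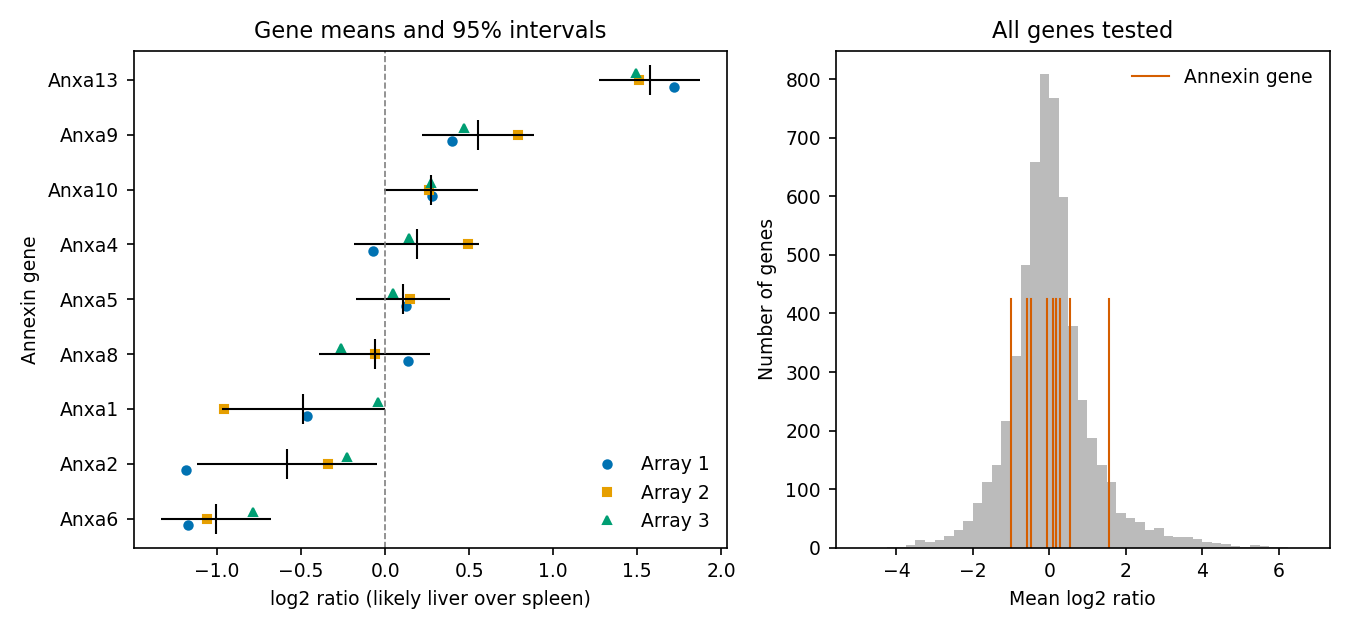
Left, mean log2 ratio (vertical ticks, likely liver over spleen) with 95% intervals from limma (horizontal lines) and the values on the 3 arrays (symbols) for the 9 tested annexin genes; right, number of genes by mean log2 ratio for all 5731 genes tested (grey), with the annexins as orange lines. Anxa13 (1.57) stands apart on the liver side and Anxa6 (-1.01) is lowest, while the other annexins lie within the bulk of all genes.

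In order of gene means from liver to spleen the annexins ran Anxa13, Anxa9, Anxa10, Anxa4, Anxa5, Anxa8, Anxa1, Anxa2 and Anxa6. Only the first 2 steps separated neighbours on every array: Anxa13 lay above Anxa9, and Anxa9 above Anxa10 by 0.28 ± 0.22 (SD, n = 3 arrays). From Anxa10 down to Anxa6 each neighbour was higher on 2 of 3 arrays, with overlapping values. The means of the 9 genes lay above 0 in 5 cases and below in 4, and 7 of 9 (77.8%) kept 1 sign on all arrays, against 75.9% of all genes. The median SD over arrays was 0.20 for annexins and 0.22 for all genes.

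Taken spot by spot, 13 annexin spots had values on all 3 arrays. Of these, 2 were called higher in liver and 3 higher in spleen, or 38.5% in all, against 58.2% of 10614 spots in the same fit (28.7% in liver and 29.6% in spleen; limma). Without array 1, 1 annexin spot was called on each side (Anxa13 and spot 4163 of Anxa6), and without array 2 Anxa13 was the only one called higher in liver. All 5 called spots belonged to AK clones, a class (named by the first letters of the clone's sequence identifier) that made up 13 of the 17 annexin spots. The other spots were 3 BG clones and 1 BF clone. Of these 4, which represent Anxa2, Anxa4 and Anxa5, 2 had a ratio on array 3 alone and were not tested. Outside the AK class only spots 1951 (Anxa4) and 6444 (Anxa5) could therefore be called. The share of AK clones among all spots is not given here, so the AK names of the called spots say nothing about clone class.

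The genes closest to the extreme annexins over the 3 arrays, by Euclidean distance between their log2 ratios, were as follows. Nearest to Anxa13 were Got2, a mitochondrial aspartate aminotransferase (mean 1.59, distance 0.06), the hydrolase Abhd2 (1.56, 0.09) and Ndufa11, a subunit of respiratory complex I (1.62, 0.09). Nearest to Anxa6 were Asz1, a germ-cell protein (mean -1.01, distance 0.03), the RNA helicase Ddx10 (-1.04, 0.09) and the poly(A)-binding protein Pabpc1 (-0.96, 0.12). With 3 arrays of the same 2 RNAs, likeness here means little more than a similar mean ratio.

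S100 proteins, small calcium-binding proteins of which several dock on annexins, likewise went both ways, with larger ratios. Of 5 tested S100 genes, 2 were called higher in liver and 2 higher in spleen (median log2 ratio 0.39, against -0.03 over all genes, with 54.9% of all genes called). Without array 1, 1 of 5 S100 genes was called higher in liver, against 938 of 5870 genes. S100a11, a partner of Anxa1, gave -0.99, -0.71 and -0.95 on arrays 1, 2 and 3, a mean of -0.88 ± 0.15 (SD, n = 3 arrays; limma adjusted p = 0.00233), and its spots averaged -0.86 and -0.91. S100a9, a calprotectin subunit of neutrophils, stood at -3.21 ± 0.76 (limma adjusted p = 0.000485), a call that was lost with its own variance (0.0598) over a range starting at 6.99e-07. S100a16 was higher in liver at 1.48 ± 0.19 (limma adjusted p = 0.000460), with spots at 1.59 and 1.37.

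S100b was called higher in liver at 0.98 ± 0.56 (SD, n = 3 arrays; limma adjusted p = 0.0146), but not without array 1 (0.0568) or with its own variance (0.165), over a range starting at 0.00596. S100a1 was not called (0.39 ± 0.59, limma adjusted p = 0.210), and that mean joined spots on opposite sides: spot 3436 averaged 2.79 ± 0.61 and spot 4840 averaged -2.01 ± 0.62, each called among spots (limma adjusted p = 0.000233 and 0.000803). The annotated name thus covered spots that disagreed beyond their spread. It was called without array 3 (mean 0.72, limma adjusted p = 0.0273), and with the spot of largest absolute mean (0.000259), over a range reaching 0.605. S100a6, which binds several annexins, had ratios on array 3 only, with a mean of 0.25, and S100a14 gave -0.20 and -0.62 on arrays 1 and 3.

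Among partners and receptors of annexins, 11 genes were tested; 3 were called higher in liver and 4 higher in spleen, with a median log2 ratio of 0.06. This count lies near the share of 54.9% called over all genes. The list shares S100a11, 1 of its 4 genes called in spleen, and S100a6 with the S100 family. Without array 1, 1 of 11 partners and receptors was called higher in liver, against 938 of 5870 genes. Ahnak, a giant scaffold protein that binds the complex of Anxa2 and S100a10, gave 2.38, 2.40 and 2.67 on arrays 1, 2 and 3, the largest ratio of the list (2.48 ± 0.16, SD, n = 3 arrays; limma adjusted p = 9.10e-05). The mean of Anxa2 (-0.58) lay on the other side of 0, but Anxa2 was not called (limma adjusted p = 0.0635) and its spots differed in sign. The Anxa7 partner Sri (sorcin) was higher in spleen at -1.34 ± 0.12 (limma adjusted p = 0.000478), on all of its 4 spots, whose means ran from -1.89 to -1.05. Pdcd6 (ALG-2), a calcium sensor that binds Anxa7 and Anxa11, was higher in liver at 0.74 ± 0.22 (limma adjusted p = 0.00640), a call lost without array 1 (0.0659) and with its own variance (0.0763), over a range starting at 0.00113.

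Called with smaller ratios than Ahnak and Sri were also Prkca, Dysf and Lamtor1. Prkca, a protein kinase C that Anxa6 binds, stood at -0.82 ± 0.09 (SD, n = 3 arrays; limma adjusted p = 0.00240), on the same side as Anxa6. Dysf (dysferlin), which acts in membrane repair with Anxa1 and Anxa2, stood at -0.63 ± 0.20 (limma adjusted p = 0.0107). Its call was lost without array 1 (0.101) or array 3 (0.0509) and with its own variance (0.0843), over a range starting at 0.00264. Lamtor1, an anchor of signalling complexes on late endosomes, was higher in liver at 0.48 ± 0.21 (limma adjusted p = 0.0280). Its call was lost without array 1 (0.128) or array 3 (0.105) and with its own variance (0.119), over a range starting at 0.0174.

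Proteins with C2 domains leaned to the spleen side by count. The C2 fold is unrelated to the annexin core, and in many such proteins, though not all, it binds membranes in response to calcium. Of 13 tested, 6 were called higher in spleen and 1 higher in liver, with a median log2 ratio of -0.47, where 27.8% of all genes were called in spleen and 27.1% in liver. This list shares Dysf and Prkca with the partners. The ferlin Myof (myoferlin) gave -1.42, -1.58 and -1.83 on arrays 1, 2 and 3, or -1.61 ± 0.20 (SD, n = 3 arrays; limma adjusted p = 0.000383). Esyt1, which tethers the endoplasmic reticulum to the plasma membrane, stood at -1.38 ± 0.25 (limma adjusted p = 0.000756). The neuronal vesicle-priming gene Unc13a was the 1 on the liver side, at 0.84 ± 0.16 (limma adjusted p = 0.00289). Cpne8, a copine, averaged -0.54 ± 0.11 (limma adjusted p = 0.0122) through spot 17736 (-1.45), while spots 5971 (0.16) and 13435 (-0.33) were not called. With the median over its spots Cpne8 was not called (0.201), over a range starting at 0.000292. It was also not called without array 1 (0.101) or array 3 (0.0526), or with its own variance (0.0506). Without array 1, 3 of 14 genes of the list were called higher in spleen, against 903 of 5870 genes. Without array 3 these counts were 3 of 13 and 1322 of 5772.

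**Figure D3:**
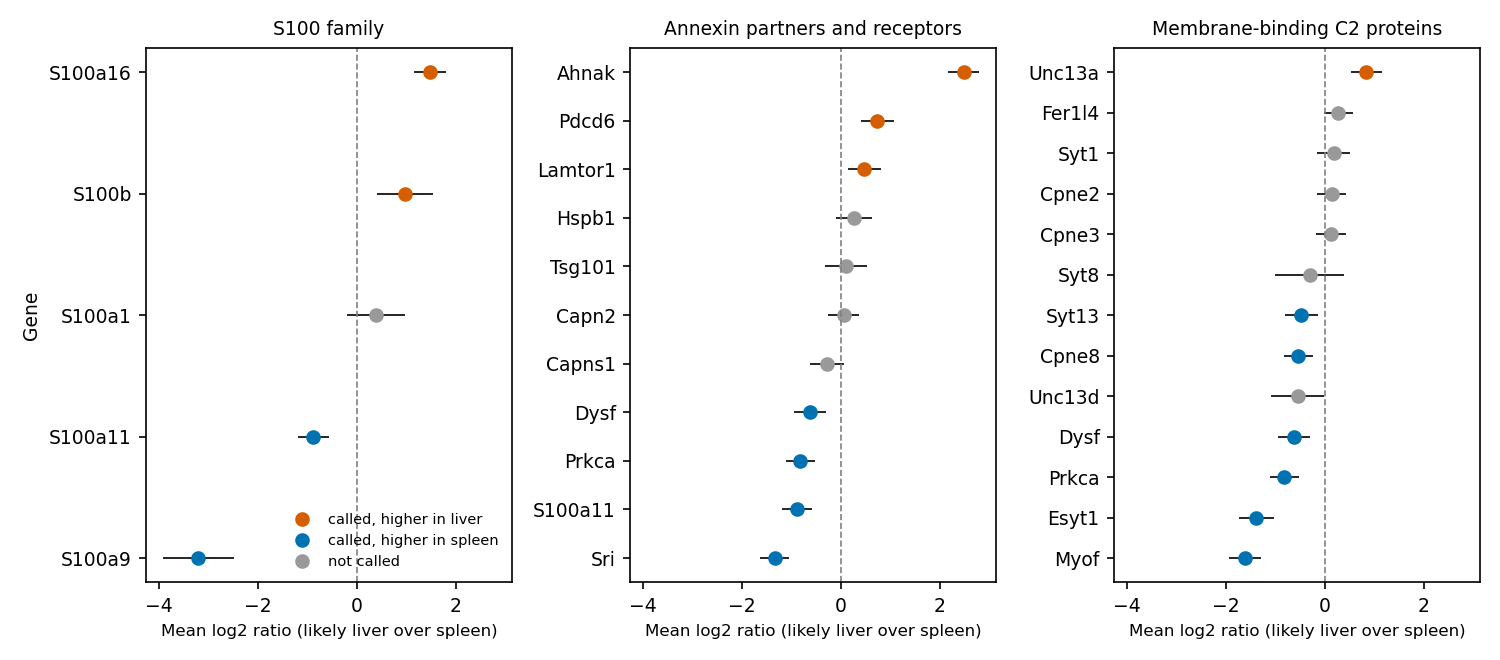
Mean log2 ratio (horizontal axis, likely liver over spleen) with 95% intervals from limma for the tested members of the S100 family, the annexin partners and receptors, and the membrane-binding C2 proteins; orange and blue points passed the test and grey points did not. S100a9 (-3.21) and Ahnak (2.48) lie farthest from 0, and the C2 panel has 6 blue points and 1 orange point.

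Markers of blood cells moved toward spleen together with Anxa6 and Anxa3. Beside the 5 B-cell markers, all 3 tested neutrophil markers, both tested macrophage markers and both tested platelet markers were called higher in spleen, as were 3 of 4 T and NK cell markers, 5 of 6 erythroid markers and 4 of 5 fibroblast and smooth muscle markers, where 27.8% of all genes were called in that direction. The members called higher in liver were Cd3d (1.24), Alas2 (0.91) and Lum (2.82). The macrophage markers tested were Axl and Lgals3 only. Others with ratios on fewer arrays had positive means, namely Csf1r (0.49) and Cd68 (0.12) on array 3 and C1qa (0.45) on arrays 2 and 3, and so had the neutrophil marker Mpo (0.14, array 3). The mean log2 ratio of the neutrophil markers was -2.71, -2.92 and -2.32 on arrays 1, 2 and 3, and that of the B-cell markers -3.74, -3.64 and -2.70. On the liver side, together with Anxa13 and Anxa9, stood the hepatocyte markers (5.15, 5.10 and 4.46), and of 2 bile duct markers tested Sox9 was called and Cldn7 was not. Their part in the annexin ratios was not tested. In whole-tissue RNA, fewer cells of a type and less RNA per cell cannot be told apart.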

How the data were processed

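The authors deposited, for each spot on each array, the log2 ratio of its channels. The sources used here do not say how they corrected background, normalized and filtered, or which channel is the numerator. The ratios were neither rescaled nor recentred for the main results. The log2 base was read from the largest value, which equals 100-fold. The median over spots with a value was -0.02, 0.03 and 0.05 on arrays 1, 2 and 3, with SDs of 1.12, 1.22 and 0.98. Exact zeros (3207, 5153 and 1063 spots on the respective arrays) were taken as missing, since each other value appeared at most 2 times per array. Signal over background is unknown.

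Spot names came from the platform annotation, and symbols were brought up to date with RefSeq through the Entrez identifiers (GRCm38.p6; 12228 of 12336 spots with 1 gene matched; 61 spots had several genes and 3876 none). For each array a gene's value is the mean over its spots with a ratio. Coordinates were not used. Mean log2 ratios were tested against 0 in limma 3.58.1 (R 4.3.3; lmFit on an intercept, eBayes; two-sided) across all 5731 genes, and across all 10614 spots, with values on 3 arrays, with Benjamini-Hochberg adjustment over each whole table, and likewise on the spot differences of 948 genes with 2 spots, a test added after seeing the data; an adjusted p under 0.05 was called. The arrays form 1 group, and their number limits the precision. The procedure was run on simulated data with independent arrays and few changed features. Those data held no dye effect and no effect shared by arrays, so they say nothing about such effects here.

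The annexins were taken by the name rule, but that rule and the gene lists were set with earlier results of these data known. Named were every annexin; of the other lists all members where 10 or fewer were measured, otherwise up to 5 called genes per direction with the largest ratios; and the 3 genes nearest to the highest and the lowest annexin. The 12 alternatives covered exact zeros, the combining of spots, clones, centring, scaling, variance, the filter and leaving out each array. Where a feature's own variance was taken alone, eBayes was left out. The p-values of that alternative are those of an ordinary t-test, adjusted in the same way.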

Additional observations from a re-analysis of the deposited data

How the results depend on the processing

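Of 136 counts recomputed under 12 alternatives, 112 stayed within 1.5 times the reported count. Leaving out 1 array gave 1 to 2 annexin genes called higher in liver and 1 to 3 in spleen, 1 to 2 and 1 to 4 annexin spots, 938 to 1530 and 903 to 1813 of all genes, 1 to 3 and 2 to 2 S100 genes, 1 to 3 and 3 to 4 partners, and 1 to 1 and 3 to 8 C2 genes. The lowest counts of all genes, 938 and 903, came without array 1. With the variance of each feature taken alone, 869 genes were called higher in liver and 592 in spleen. The annexins then had 0 genes called in spleen (ordinary t-test, 1 at an unadjusted p under 0.05). In liver 2 were called, Anxa10 and Anxa13 in place of Anxa9 and Anxa13. Among spots 1 was called in liver and 1 in spleen. The same setting left 1 S100 gene in each direction, 1 partner in liver and 3 C2 genes in spleen. Annexins called in spleen numbered 2 with only spots having 3 values and with the spot of largest absolute mean (both Anxa2 and Anxa6), and 2 with values on at least 2 arrays (Anxa3 and Anxa6). Anxa8 changed sign without array 3 (mean 0.039, limma adjusted p = 0.843), with means from -0.16 to 0.039 when 1 array was left out; no other named gene did. The alternatives for the related lists and for the difference between the Anxa6 spots were chosen after seeing the data. Spots at 0 on all arrays stayed out where exact zeros were kept as values. Where not stated otherwise, the cause of a change was not tested. Channel intensities were not used, so no result could be limited to bright spots. Each ratio already pairs the tissues within its array; a replicate block could not be added, since the arrays form 1 group.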
